A study of Mus musculus with 6 samples.

Results

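The genes of the mitochondrial respiratory chain were compared between optic nerves of mice with optic nerve crush (ON-CR) and of sham-operated mice. The members were chosen by gene symbol: every gene named Nduf, Sdha to Sdhd, Uqcr, Cyc1, Cycs, Cox4 to Cox8 or Atp5, together with the protein-coding genes of the mitochondrial genome. Of 25755 genes in the table, 111 were members. The nuclear genome encodes 98 of them and the mitochondrial genome 13. By complex, the nuclear and mitochondrial members were 39 and 7 genes of complex I, 4 and 0 of complex II, 9 and 1 of complex III, 20 and 3 of complex IV, and 17 and 2 of complex V. The remaining nuclear members were the 8 complex I assembly factors named Ndufaf and Cycs, the gene for cytochrome c. A further 13 rows carry symbols with the suffix -ps and were dropped by the rule, and they held 0.249% of the summed value of the members. Another 4 genes, Ndufa11b, Ndufb4c, Ndufs6b and Cox6c2, were kept by the rule although the gene models list them as processed pseudogenes.

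The respiratory chain passes electrons from NADH and succinate to oxygen through complexes I to IV in the inner mitochondrial membrane, pumps protons as it does so, and complex V (ATP synthase) uses the proton gradient to make ATP. Complexes I, III, IV and V are built from proteins of both genomes, whereas complex II is wholly nuclear. Mitochondrial mRNAs are cut from long polycistronic transcripts made in the organelle, while each nuclear subunit has its own promoter, and in the optic nerve the chain serves unmyelinated and myelinated axons as well as glia.

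Both groups were 3 months old and of the genotype NF1flox/flox;hGFAP-Cre. Mice 1 to 3 had a sham operation and mice 4 to 6 had ON-CR, so the controls also carry the floxed alleles and the Cre transgene. In these mice the human GFAP promoter drives Cre in neuroglial progenitors, and Nf1 is lost in the glia and other cells that descend from them, not in every cell of the nerve. RNA of the whole nerve was sequenced in bulk, so fewer cells of a type and less RNA per cell cannot be told apart. The deposited values are estimated gene counts that the authors divided by a factor for each library (normalized values). Fold changes below are on the scale of log2(value + 1), ON-CR against sham, and a gene was called where the limma adjusted p over all 25755 genes was at or under 0.05.

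The libraries held an estimated 17414589 to 23620019 reads on genes, and every ON-CR library (at most 18977998 reads) was shallower than every sham library. Nf1 itself had values of 343 to 447 in sham and 380 to 438 in ON-CR nerves. Defining markers of oligodendrocytes, astrocytes and microglia were present in all 6 nerves. The 10 mature oligodendrocyte genes summed to 6.69% to 8.76% of the total in sham and 3.46% to 3.95% in ON-CR, with 7 called lower. Of 9 microglia and macrophage genes, 5 were called higher in ON-CR (sums of 16440 to 20661 in sham and 22519 to 36082 in ON-CR), as were 4 of 4 proliferation genes. Of the same 9 genes, 2 had negative log2 fold changes. Tmem119 was lower without overlap (-0.27, limma adjusted p = 0.351), and P2ry12 had -0.35 (limma adjusted p = 0.364). The erythrocyte genes took 0.724% to 2.41% of the total without separating the groups, and the astrocyte genes 1.11% to 1.26% in sham and 1.49% to 1.65% in ON-CR. Of the 8 astrocyte genes, however, 4 were negative, with a median log2 fold change of -0.03, and 0 were called. Gfap (99186 to 123408 in sham and 156465 to 202957 in ON-CR), Aqp4 and Slc1a3 were higher without overlap. Gjb6 and Aldoc were lower without overlap (-0.42 and -0.62). Neuron genes summed to 13006 in ON-CR mouse 5 and to 2806 to 6237 in the other nerves, and keratinocyte and airway genes to 5308 to 7895 in mice 3, 5 and 6 and to 180 to 224 in the other 3. The Y-linked gene Ddx3y lay at 1291 to 1645 in sham and at 976, 4.19 and 0 in ON-CR mice 4, 5 and 6, and the X-inactivation RNA Xist at 2.14 to 30.9 in sham and 2708 to 6357 in ON-CR, so sex and crush cannot be told apart. The library of ON-CR mouse 4 held both RNAs (Ddx3y at 976 and Xist at 2708). Whether it came from a single animal was not tested. The part of cell composition, depth and sex in the differences below was not tested. The 3 X-linked members, Cox7b, Ndufa1 and Ndufb11, had log2 fold changes of -0.0024, -0.02 and -0.17.

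Promoters were examined for letters recognised by known regulators of nuclear respiratory genes. RefSeq promoters of GRCm38.p6, from 250 bases before to 50 bases after the start of the gene, were matched for 77 of the 98 nuclear members and searched on both strands. The NRF1 motif GCGCATGC was found in 13 of them (16.9%), against 2.8% of all 27025 promoters. The ETS motif CCGGAAG, read by GABP, was found in 18 (23.4%, against 9.12%) and the ESRRA motif TCAAGGTCA in 2 (2.6%, against 0.407%). A match describes the letters and is not evidence of binding. The median log2 fold change was -0.04 over the members with the NRF1 motif (7 of 13 negative) and -0.04 over those with the ETS motif (10 of 18 negative). The promoters printed here belong to Uqcrfs1 and Sdha, which had the lowest fold changes among members with a mean value of at least 50 and a matched promoter and hold none of these 3 motifs, and to a pair that carries the NRF1 motif, namely Cycs and Cox6a1, the broadly expressed partner of Cox6a2. Capitals mark the motifs on either strand. In Cox6a1 the upstream capitals span 2 overlapping NRF1 matches on opposite strands, and the downstream ones are the ETS motif on the other strand. All are written 5′ to 3′ on the minus strand of the chromosome, the strand of the gene: chr13:30545267-30545566 (Uqcrfs1), chr13:74350191-74350490 (Sdha), chr5:115348909-115349208 (Cox6a1) and chr6:50566520-50566819 (Cycs).
Uqcrfs1: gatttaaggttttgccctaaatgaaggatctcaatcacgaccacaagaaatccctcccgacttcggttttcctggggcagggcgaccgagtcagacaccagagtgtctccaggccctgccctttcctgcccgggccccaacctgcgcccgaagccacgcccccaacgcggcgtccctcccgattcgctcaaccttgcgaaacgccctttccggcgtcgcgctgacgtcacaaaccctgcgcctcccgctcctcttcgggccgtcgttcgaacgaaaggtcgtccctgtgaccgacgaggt
Sdha: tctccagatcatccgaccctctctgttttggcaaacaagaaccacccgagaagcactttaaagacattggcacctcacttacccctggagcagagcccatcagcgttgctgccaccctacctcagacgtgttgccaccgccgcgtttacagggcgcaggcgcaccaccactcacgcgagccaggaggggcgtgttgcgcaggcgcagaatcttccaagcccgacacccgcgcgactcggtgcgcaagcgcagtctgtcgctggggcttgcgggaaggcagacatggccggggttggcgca
Cox6a1: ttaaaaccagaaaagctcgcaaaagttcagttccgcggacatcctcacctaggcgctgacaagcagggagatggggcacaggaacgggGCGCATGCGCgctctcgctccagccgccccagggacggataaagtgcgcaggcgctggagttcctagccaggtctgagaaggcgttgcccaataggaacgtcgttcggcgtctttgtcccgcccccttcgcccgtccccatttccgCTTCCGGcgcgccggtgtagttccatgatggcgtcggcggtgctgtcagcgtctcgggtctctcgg
Cycs: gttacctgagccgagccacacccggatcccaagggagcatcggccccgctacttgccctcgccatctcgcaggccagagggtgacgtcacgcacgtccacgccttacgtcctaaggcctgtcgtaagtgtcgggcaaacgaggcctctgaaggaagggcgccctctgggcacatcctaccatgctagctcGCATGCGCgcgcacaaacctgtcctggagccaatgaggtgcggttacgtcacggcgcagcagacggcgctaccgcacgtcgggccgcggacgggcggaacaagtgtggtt

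Transcripts of the respiratory chain differed little between the groups. No member passed the adjusted threshold in limma in either direction, while 540 genes of the table did (2.1%: 0.971% higher and 1.13% lower). At an unadjusted p of 0.05, 3 members were higher and 7 lower in ON-CR, or 10 of 111, where the share over all genes was 15.6% (7.37% higher and 8.22% lower). With libraries scaled to equal totals, 17 members reached this p in limma, and 21 when the totals left out mitochondrially encoded genes. The share over all genes under these 2 scalings is not given here. A robust limma fit called 1 member, Cyc1. Limma with sample quality weights called 0, but it called only 7 of all genes, so this says little about the members. The 95% interval of the fold change lay within 1.5-fold in both directions for 100 of 111 members (90.1%), compared with 24.8% of all genes. Members are abundant, and among all genes with a mean value of at least 500 this share was 65.0%, against 96.4% of the 83 nuclear members with such a mean. With equal totals the interval lay within 1.5-fold for 94 of 111 members (84.7%), compared with 24.2% of all genes. Of the 13 mitochondrially encoded members, 12 lay within it as deposited and 9 with equal totals (69.2%). At a mean of at least 500 the share was then 66.4% of all genes and 97.6% of the nuclear members. All 111 members had a value of at least 10 in at least 3 libraries and none was at the level of 3 reads, so none was lost to low counts.

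The middle of the distribution lay slightly apart for the 2 genomes. The median log2 fold change was -0.05 over the nuclear members, with 65 of 98 negative, and 0.15 over the mitochondrially encoded members, with 8 of 13 positive, beside 0.03 over all genes and -0.07 over all genes with a mean of at least 500. These directions depended on how libraries were scaled. Scaling to equal totals raised the median of all genes to 0.15 and turned the nuclear median to 0.07, with 36 of 98 negative, and it set the mitochondrial median at 0.28, with 12 of 13 positive. Relative to the median of all genes, the nuclear median was -0.08 and the mitochondrial median 0.12 as deposited, and -0.08 and 0.13 with equal totals. The nuclear offset was not seen beside genes of like abundance. At a mean value of at least 500, the median was -0.06 over 83 nuclear members (57 negative) and -0.07 over all 5841 genes (3511 negative). With equal totals these medians were 0.07 and 0.06. Groups did not overlap for 7 members that were higher and 15 that were lower in ON-CR (6.31% and 13.5%), beside 10.5% and 11% of all genes (21.6% in either direction). Among genes with a mean value of at least 500 the shares were 10.1% higher and 23.3% lower, against 4.82% and 15.7% of the 83 nuclear members with such a mean. With equal totals, 1237 of the 5841 genes with such a mean were higher without overlap and 778 lower, against 21 and 5 of the 83 nuclear members. Without a limit on the mean, 22 nuclear and 8 mitochondrial members were then higher without overlap, beside 16.6% of all genes, and 6 nuclear members were lower, beside 6.46%. Atp5b, Cyc1, Ndufaf6, Sdha and Uqcrfs1 were among them and did not overlap under either scaling, and limma again called no member (the lowest adjusted p was 0.101, for Cox6a2).

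**Figure D1:**
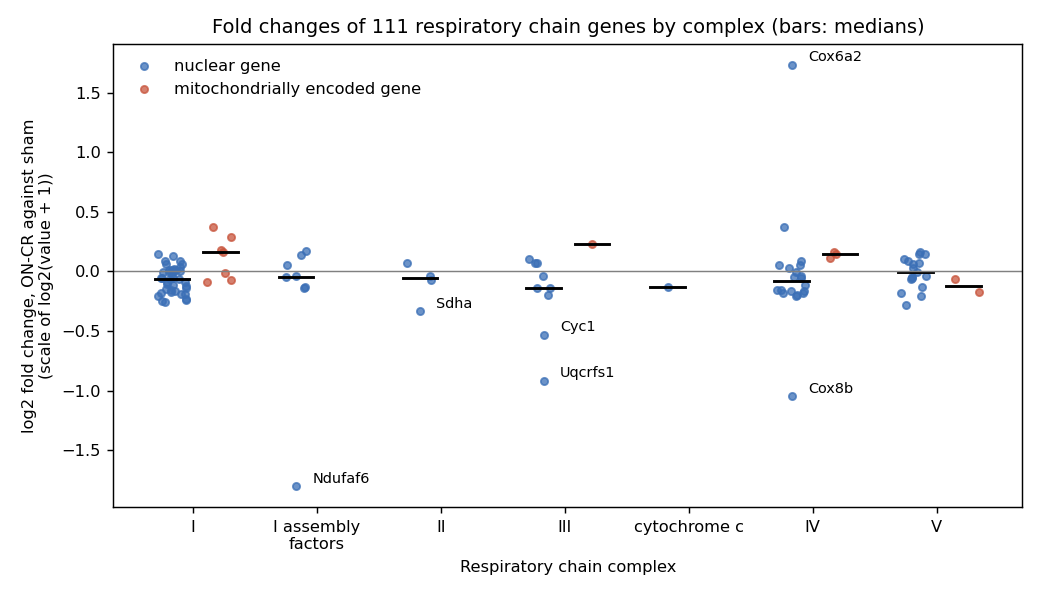
Log2 fold change of each of the 111 members, ON-CR against sham (y axis, scale of log2(value + 1)), by complex (x axis). Points are genes, blue for nuclear and red for mitochondrially encoded, and black bars are medians. Most points lie close to 0, with Uqcrfs1, Cyc1, Ndufaf6, Cox8b and Cox6a2 away from the rest, and scaling to equal totals turns the median of all nuclear members from -0.05 to 0.07.

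Complex I, the NADH dehydrogenase, takes electrons from NADH. Its 39 nuclear members had a median log2 fold change of -0.06, with 27 negative, which turned to 0.07 and 13 with equal totals, and their fold changes ranged only from -0.26 to 0.15. The 7 nuclear core subunits, which carry the flavin and iron-sulfur clusters, were all negative with a median of -0.17, compared with -0.04 and 20 negative of the 32 other nuclear genes, which are accessory subunits and 3 of the listed pseudogenes. With equal totals these medians were -0.04, with 5 of 7 negative, and 0.09. Ndufs1, the largest iron-sulfur core subunit, had values of 2009, 1961 and 1832 in the sham nerves (mice 1, 2 and 3, the order kept throughout) and of 1557, 1723 and 1565 in the ON-CR nerves (mice 4, 5 and 6). All 3 ON-CR nerves were below all sham nerves, with a log2 fold change of -0.26 ± 0.11 (SE) and a limma adjusted p of 0.271, but overlapped with equal totals (-0.13). Ndufs1 overlaps gene models on the other strand. Ndufv1 and Ndufv2, core subunits of the NADH-oxidising part, overlapped between the groups and had fold changes of -0.21 and -0.05. Ndufa6, an accessory subunit, was the only nuclear complex I gene that was higher without overlap as deposited (9 were with equal totals), at 2401, 2299 and 2133 in sham and 2487, 2432 and 2634 in ON-CR (0.15, limma adjusted p = 0.552).

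The 8 Ndufaf genes encode proteins that help to build complex I and are not part of the finished enzyme. Their summed values were 3089 to 3530 in sham and 3117 to 3486 in ON-CR, and their median log2 fold change was -0.04 (0.08 with equal totals). Ndufaf6, whose values stood apart from the rest of this group, had 30.8, 60.2 and 34.7 in sham and 8.97, 7.34 and 18.7 in ON-CR. Every ON-CR nerve was below every sham nerve. The log2 fold change was -1.80 (95% interval -2.84 to -0.77, limma adjusted p = 0.0838), so it did not pass the threshold, and the values correspond to few reads. Ndufaf4 had the highest fold change of the group at 0.17, with groups that overlapped.

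Complex II, succinate dehydrogenase, links the citric acid cycle to the chain. Sdha, the flavoprotein that oxidises succinate, had values of 9201, 8349 and 7348 in sham and of 6243, 6915 and 6532 in ON-CR. The highest ON-CR nerve was below the lowest sham nerve, with a log2 fold change of -0.33 (95% interval -0.59 to -0.08) and a limma adjusted p of 0.192. Its iron-sulfur partner Sdhb had values of 4369, 4213 and 3835 in sham and of 4225, 4144 and 4688 in ON-CR, which overlapped (0.07, limma adjusted p = 0.804). The value of Sdha was 211%, 198% and 192% of that of Sdhb in sham (200% ± 9.65, SD, n = 3) and 148%, 167% and 139% in ON-CR (151% ± 14.1), with no overlap. A ratio within a library does not depend on scaling, but it shows unequal change without showing which gene changed. The membrane anchors Sdhc and Sdhd had fold changes of -0.04 and -0.08, which turn to 0.09 and 0.05 with equal totals. Sdha overlaps a gene model on the other strand, and strand-specific counting is not stated in the sources used here.

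Complex III passes electrons from ubiquinol to cytochrome c, and its members with the lowest fold changes were the 2 catalytic proteins of the nuclear set. Cyc1 encodes cytochrome c1, the haem protein that hands electrons to cytochrome c. Its values were 2014, 2078 and 1736 in sham (1943 ± 182) and 1336, 1473 and 1225 in ON-CR (1345 ± 124). All 3 ON-CR nerves were below all sham nerves, with a log2 fold change of -0.53 (95% interval -0.80 to -0.26). The limma adjusted p was 0.0576, the lowest of the 111 members and above the threshold. It was 0.0423 in the robust fit and 0.0357 without ON-CR mouse 5 (log2 fold change -0.60), and ranged from 0.0357 to 0.269 over all settings. No other gene model overlaps Cyc1 (chr15:76343523-76346260, plus strand, GRCm38).

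Uqcrfs1 encodes the Rieske iron-sulfur protein of the same complex. Its values were 1903, 2074 and 1779 in sham and 1528, 1310 and 520 in ON-CR. The groups did not overlap, but ON-CR mouse 6 lay far below mice 4 and 5, and the log2 fold change of -0.92 (95% interval -1.64 to -0.20, limma adjusted p = 0.200) was -0.44 without that mouse. The core proteins Uqcrc1 and Uqcrc2 had fold changes of -0.19 and -0.14, with groups that overlapped. Against Uqcrc1 in the same library, Cyc1 stood at 22.9%, 25.3% and 26% in sham and 19.2%, 21.9% and 17.8% in ON-CR. Cytochrome c itself (Cycs), the mobile carrier between complexes III and IV, had values of 3459, 3552 and 2856 in sham and 2816, 2738 and 3445 in ON-CR, which overlapped (-0.13, limma adjusted p = 0.682). The small subunits Uqcrb, Uqcrh and Uqcrq had fold changes of 0.07 to 0.11, Uqcr10 and Uqcr11 had -0.04 and -0.14, and the median of the 9 nuclear members was -0.14 (-0.01 with equal totals).

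**Figure D2:**
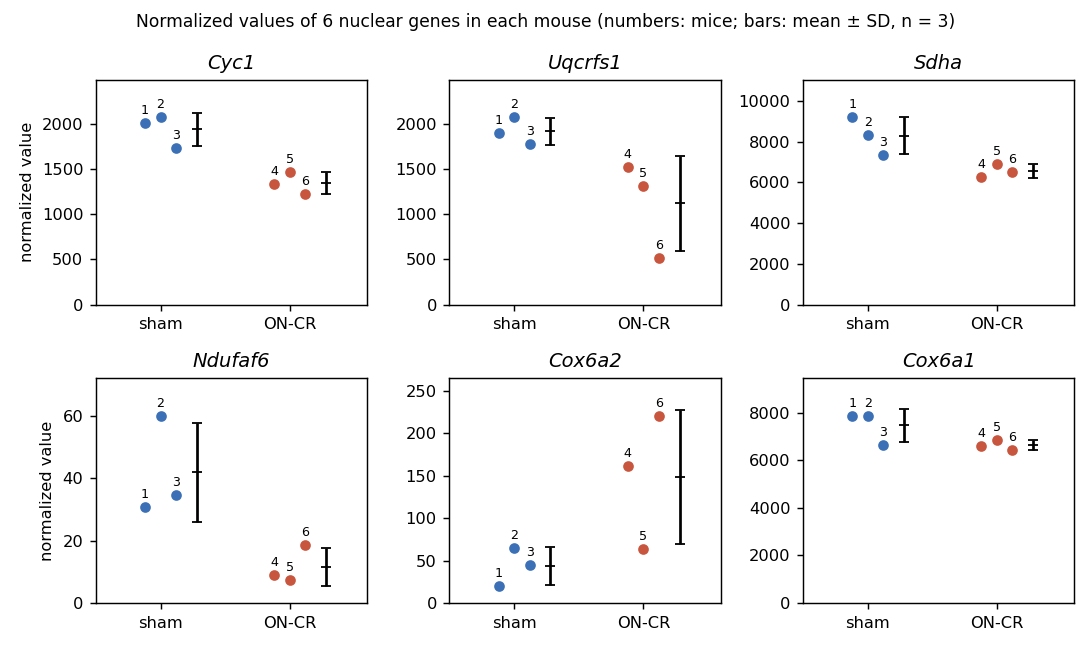
Normalized values (y axes, from 0) of Cyc1, Uqcrfs1, Sdha, Ndufaf6, Cox6a2 and Cox6a1 in sham and ON-CR nerves (x axes). Points are mice with their numbers, and bars are the mean ± SD of 3 mice. The groups do not overlap for Cyc1, Uqcrfs1, Sdha and Ndufaf6, mouse 6 is far below the other ON-CR mice for Uqcrfs1, and mouse 5 lies among the sham mice for Cox6a2, though above them with equal totals.

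Complex IV, cytochrome c oxidase, reduces oxygen, and several of its nuclear subunits exist as tissue isoforms. Cox6a2, the isoform of heart and skeletal muscle, had the highest fold change of all members. Its values were 20.2, 64.6 and 45.1 in sham and 162, 63.9 and 221 in ON-CR. Mice 4 and 6 lay above every sham mouse, and mouse 5 did so only with equal totals. The log2 fold change was 1.73 (95% interval 0.61 to 2.85, limma adjusted p = 0.121), and 2.25 without ON-CR mouse 5 (limma adjusted p = 0.0192). The level was small beside that of Cox6a1, the isoform of most tissues with a gene model of similar length (680 and 702 bases of exon), at 0.256%, 0.82% and 0.677% of the Cox6a1 value in sham and 2.44%, 0.934% and 3.44% in ON-CR. Cox6a1 had values of 7883, 7877 and 6657 in sham and of 6618, 6846 and 6436 in ON-CR (-0.17, limma adjusted p = 0.511).

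Other muscle genes were measured beside Cox6a2. Of 14 skeletal muscle markers, 13 were in the table, none was called (limma; 1 higher and 1 lower at an unadjusted p of 0.05), and their sums overlapped at 262 to 593 in sham and 281 to 455 in ON-CR. The defining markers Myh4, Tnnc2 and Mb were at 0 in at least 1 library each, while Acta1, Mylpf, Tnnt3 and Tnni2 were present in all 6. Tnni2, a fast-muscle troponin, was at 14.9, 26.6 and 32.9 in sham and 75.8, 41.9 and 68.5 in ON-CR, which did not overlap (1.32, limma adjusted p = 0.126). Pvalb went the other way without overlap, at 110, 212 and 119 in sham and 93.7, 51.7 and 89.3 in ON-CR (-0.89, limma adjusted p = 0.207). The median log2 fold change of the 13 markers was -0.41, with 8 negative. Cox6a2 lies at chr7:128205435-128206387 on the minus strand, inside the gene model of Itgad on the plus strand. Itgad overlapped between the groups at 12.1, 32.8 and 42.7 in sham and 26.1, 36.8 and 29.6 in ON-CR. Itgax, a neighbouring myeloid integrin on the same chromosome chosen after its values were seen, was at 29.7, 26.6 and 31.7 in sham and 301, 163 and 401 in ON-CR (3.16, limma adjusted p = 0.00168). Armc5, a further neighbour, was at 342, 372 and 355 in sham and 250, 257 and 290 in ON-CR (-0.42, limma adjusted p = 0.180). The ON-CR mice stood in the same order for Itgax and Cox6a2, but the sham mice did not. Among the listed microglia and macrophage genes, Aif1, C1qa, C1qb, Cd68, Csf1r and Tmem119 also had this ON-CR order. C1qc, Cx3cr1 and P2ry12 did not. The part of neighbouring transcription in the Cox6a2 value was not tested.

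The other isoform pairs gave overlapping groups. Cox4i2, the isoform of lung, stood at 0.561% to 0.691% of Cox4i1 in sham and 0.649% to 0.808% in ON-CR. Cox7a1, of heart and muscle, stood at 6.86% to 7.81% of Cox7a2 in sham and 6.59% to 7.01% in ON-CR. Cox8b, also of heart and muscle, had values of 41.4, 43.4 and 32.9 in sham and of 41.9, 26.2 and 5.19 in ON-CR, against 3770 to 4877 for Cox8a. Its log2 fold change of -1.05 (limma adjusted p = 0.466) was -0.23 without ON-CR mouse 6. Cox6b2, known from testis, stood at 16.2% to 20.8% of Cox6b1 in sham and 14.3% to 19.2% in ON-CR. Ndufa4l2, the hypoxia-responsive relative of the complex IV subunit Ndufa4, had fold changes that changed sign with the setting, from -0.17 to 0.15 when mice were left out. Cox7a2l, which joins complexes III and IV into supercomplexes, had a fold change of -0.18 (limma adjusted p = 0.483). Cox4i1, the isoform of most tissues that partners Cox4i2, stood at 18186, 17832 and 15640 in sham and 14448, 14526 and 15693 in ON-CR, and ON-CR mouse 6 lay just above sham mouse 3 (-0.21, limma adjusted p = 0.411). Over the 20 nuclear members the median was -0.08 as deposited, with 14 negative, and 0.05 with equal totals, with 9 negative.

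Complex V, the ATP synthase, consists of a catalytic head and a membrane rotor, and its nuclear members had fold changes of both signs. Atp5b, the catalytic beta subunit, had values of 12648, 13393 and 11982 in sham and of 10486, 10839 and 9896 in ON-CR. All ON-CR nerves were below all sham nerves (-0.28, 95% interval -0.52 to -0.05, limma adjusted p = 0.223). The head subunit gene Atp5a1 (alpha) and the stalk genes Atp5d (delta) and Atp5j were also lower without overlap. Their fold changes were -0.20, -0.18 and -0.13 (limma adjusted p = 0.403, 0.413 and 0.583). All of them overlapped with equal totals, at -0.07, -0.05 and -0.01. The stalk gene Atp5c1 (gamma) overlapped under both scalings (-0.06, and 0.07 with equal totals). Atp5g3, which encodes the rotor ring subunit, had values of 2807, 2937 and 2881 in sham and 3189, 3077 and 3291 in ON-CR. This was the opposite order, with every ON-CR nerve above every sham nerve (0.15, limma adjusted p = 0.519). Its paralogues Atp5g1 and Atp5g2 encode the same mature protein and overlapped between the groups (0.03 and 0.10). Atp5j2, a membrane subunit, and Atp5mpl, a small associated protein, were likewise higher without overlap, at 0.16 and 0.15 (limma adjusted p = 0.489 and 0.585). The ratio of Atp5b to Atp5e, the small epsilon subunit of the stalk, was 449% to 458% in sham and 283% to 390% in ON-CR. The median fold change over the 17 nuclear members was -0.01, with 9 negative (0.12 and 4 with equal totals), and the inhibitor Atp5if1 was not analysed here.

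Most of the 13 mitochondrial mRNAs were more abundant per kilobase of exon than any nuclear member with a gene model. The exons of all transcripts of a gene were merged for this length. It can thus exceed the mRNA length of a nuclear gene and lower its value. Per kilobase of exon, the mean normalized value ran from 6330 for mt-Nd3 and 9359 for mt-Nd4l to 172894 for mt-Co3, and the highest nuclear member, Cox4i1, stood at 10357, above mt-Nd3 and mt-Nd4l but below the other mitochondrial genes. The summed value of the 13 genes was 821777, 945367 and 876086 in sham and 964234, 913881 and 932711 in ON-CR, which overlapped. As a share of all values this was 3.89%, 4.52% and 4.53% in sham and 5.1%, 5.01% and 4.93% in ON-CR, without overlap. The 98 nuclear genes together gave 293780, 287978 and 256555 in sham and 254246, 256639 and 269397 in ON-CR, or 1.33% to 1.39% of all values in sham and 1.34% to 1.42% in ON-CR. The mitochondrial sum was 2.8, 3.28 and 3.41 times the nuclear sum in sham (3.16 ± 0.33, SD, n = 3) and 3.79, 3.56 and 3.46 times in ON-CR (3.61 ± 0.17). All ON-CR nerves were above all sham nerves, with sham mouse 3 and ON-CR mouse 6 close together. The difference of the log2 ratio was 0.19, and 0.11 without sham mouse 1. With 3 mice a group, an exact permutation test over mice cannot give a p under 0.1.

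**Figure D3:**
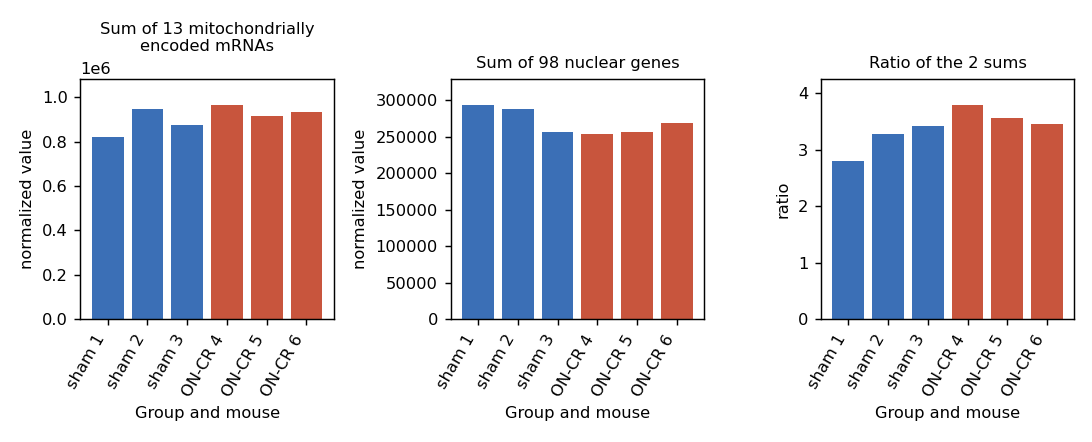
Summed normalized values (y axes of the left and middle panels, from 0) of the 13 mitochondrially encoded and the 98 nuclear members in each mouse, and their ratio (right panel). Bars are single mice, blue for sham and red for ON-CR. The ratio is 2.8 to 3.41 in sham and 3.46 to 3.79 in ON-CR, while each sum overlaps between the groups.

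The median level of the members differed from mouse to mouse within the groups. Values were set relative to the mean of each gene over the sham nerves. The median nuclear member stood at 0.07, 0.04 and -0.11 (log2) in sham mice 1, 2 and 3 and at -0.10, -0.11 and 0.03 in ON-CR mice 4, 5 and 6. Sham mouse 3 was thus as low as ON-CR mice 4 and 5, and mouse 6 was close to sham mouse 2. The median mitochondrial member stood at -0.11, 0.12 and 0.01 in sham and 0.15, 0.07 and 0.10 in ON-CR. Sham mouse 1 had the highest nuclear and the lowest mitochondrial median of all 6 nerves. Without it, the median log2 fold change of the mitochondrial members was 0.05 instead of 0.15, and single genes dropped likewise, mt-Nd4l from 0.37 to 0.22, mt-Cytb from 0.23 to 0.13, mt-Nd6 from 0.18 to 0.098, mt-Nd4 from 0.16 to 0.025, mt-Co2 from 0.15 to 0.049 and mt-Co1 from 0.11 to 0.053.

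**Figure D4:**
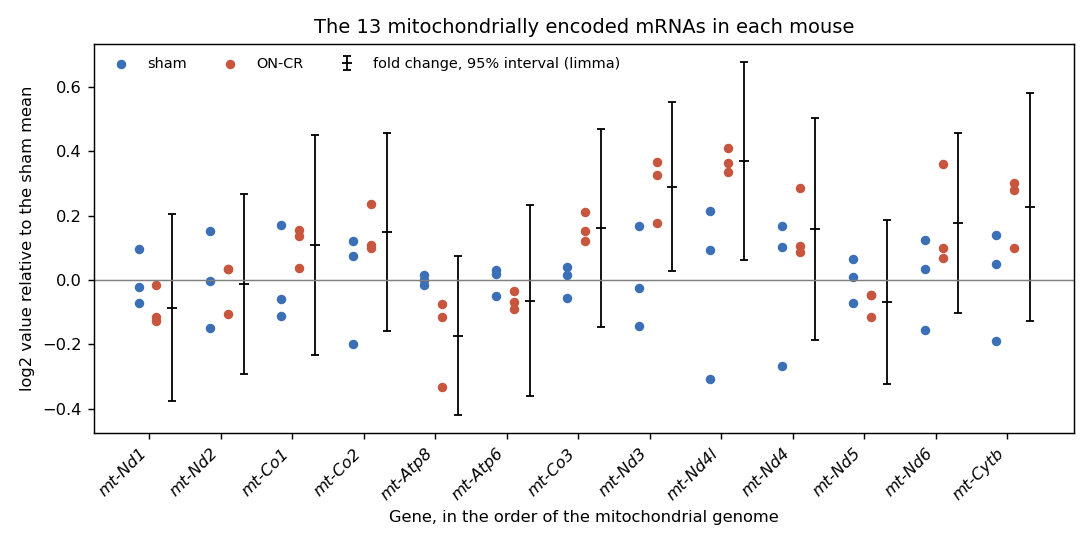
Log2 values of the 13 mitochondrial mRNAs in each mouse relative to the sham mean (y axis), in genome order (x axis). Points are mice, blue for sham and red for ON-CR, and black marks are limma log2 fold changes with 95% intervals. The marks run from -0.17 for mt-Atp8 to 0.37 for mt-Nd4l; scaling to equal totals puts all but mt-Atp8 above 0.

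Among the single mitochondrial genes, mt-Nd4l and mt-Nd3, small complex I subunits, had the highest fold changes. mt-Nd4l had values of 1950, 2801 and 2573 in sham and of 3102, 3208 and 3045 in ON-CR, without overlap (0.37, 95% interval 0.06 to 0.68, limma adjusted p = 0.230). mt-Nd3 had values of 1944, 1791 and 2220 in sham and of 2481, 2235 and 2546 in ON-CR, with mouse 5 just above sham mouse 3 (0.29, limma adjusted p = 0.272). The other complex I genes were split, with mt-Nd4 and mt-Nd6 at 0.16 and 0.18 and mt-Nd1, mt-Nd2 and mt-Nd5 at -0.09, -0.01 and -0.07, and the last 3 are above 0 with equal totals. mt-Cytb, the only mitochondrial gene of complex III, had values of 131199, 164949 and 154687 in sham and of 181508, 160320 and 184517 in ON-CR (0.23, limma adjusted p = 0.542). Its direction was opposite to that of its nuclear partner Cyc1, and mt-Cytb was 65.1, 79.4 and 89.1 times Cyc1 in sham and 136, 109 and 151 times in ON-CR. mt-Co1, mt-Co2 and mt-Co3, the catalytic core of complex IV, had fold changes of 0.11, 0.15 and 0.16. The complex V genes mt-Atp8 and mt-Atp6 had -0.17 and -0.06, of which mt-Atp6 is 0.06 with equal totals, and mt-Atp8 did not overlap between the groups at 13341, 13504 and 13223 in sham and 12341, 12669 and 10610 in ON-CR, but did with equal totals (-0.05).

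Neighbouring genes of the mitochondrial genome can share bases in their mRNAs, which bears on how reads between them are assigned. mt-Atp8 and mt-Atp6 overlap by 43 bases, mt-Nd4l and mt-Nd4 by 7, mt-Nd5 and mt-Nd6 by 14 on opposite strands, and mt-Atp6 and mt-Co3 meet in 1 shared base. Printed here from the GRCm38 transcripts, 5′ to 3′ on the plus strand, are the shared stretch of mt-Atp8 and mt-Atp6 (chrM:7927-7969) and the junction of mt-Atp6 and mt-Co3 (chrM:8578-8636), with the shared base 8607 in a capital. The junction is shown because the ratio of the 2 genes that meet there separated the groups by most relative to its spread.
mt-Atp8 and mt-Atp6 overlap: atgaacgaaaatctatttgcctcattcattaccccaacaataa
mt-Atp6 and mt-Co3 junction: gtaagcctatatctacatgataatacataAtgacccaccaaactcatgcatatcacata

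mt-Co3 had values of 131522, 129351 and 123149 in sham and of 142234, 147969 and 139069 in ON-CR, while mt-Atp6 had 119858, 121086 and 114391 in sham and 112910, 115686 and 111144 in ON-CR. The ratio of mt-Co3 to mt-Atp6 was 110%, 107% and 108% in sham (108% ± 1.5, SD, n = 3) and 126%, 128% and 125% in ON-CR (126% ± 1.43). The difference of the log2 ratio was 0.23, and it lay between 0.22 and 0.24 on leaving out any single mouse. This pair was picked after all 78 pairs of mitochondrial members had been compared, of which 35 (44.9%) had ratios that did not overlap between the groups, beside 1407 of 4753 pairs of nuclear members (29.6%). Its difference was 12.4 times the SD within groups, the measure by which it was picked, and the next pair stood at 4.3 times. Only 1 of the 4753 nuclear pairs had a difference as large in these units. Pairs share genes and the SD rests on 3 mice a group, so these values describe the pair and are not a test. Neither gene passed the threshold alone (limma adjusted p = 0.632 for mt-Co3 and 0.867 for mt-Atp6), and the part of read assignment, transcript ends or library depth in this ratio was not tested.

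**Figure D5:**
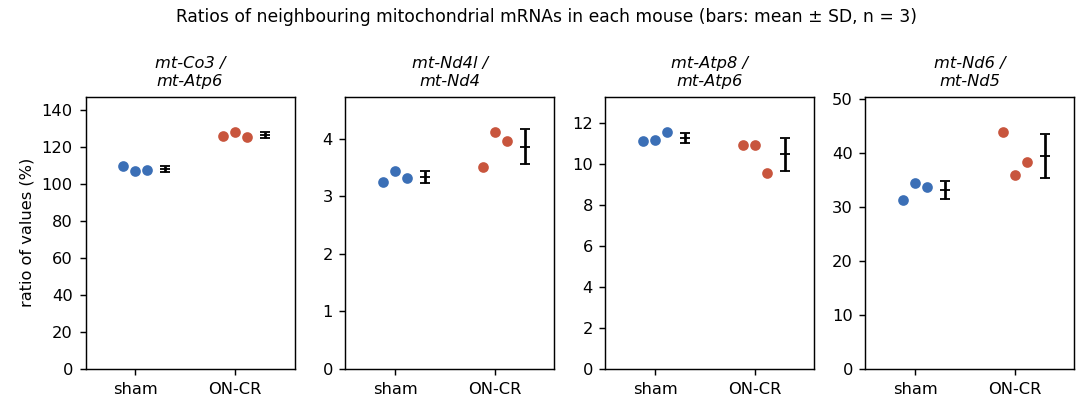
Ratio of the values of neighbouring mitochondrial genes in each mouse (y axes in percent, from 0) for sham and ON-CR (x axes). Points are mice and bars are the mean ± SD of 3 mice. mt-Co3 to mt-Atp6 is 107% to 110% in sham and 125% to 128% in ON-CR, and the other 3 ratios also separate the groups by smaller margins relative to their spread.

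Genes that serve the chain without being part of it were read from fixed lists, and limma called 0 of them in each list. Of 37 assembly factors, 26 were negative with a median of -0.09 (15 and 0.04 with equal totals), and 0 were higher and 2 lower at an unadjusted p of 0.05. Cox11, a copper chaperone of complex IV, had the lowest fold change, with values of 43.7, 66.5 and 55.7 in sham and 28.5, 3.78 and 25.7 in ON-CR (-1.83, limma adjusted p = 0.189). Of 16 genes for mitochondrial gene expression in the table, 9 were negative (median -0.08, or 0.05 with equal totals), among them Tfam, which packages and transcribes mitochondrial DNA, and Polrmt, the mitochondrial RNA polymerase. Tfam had values of 446, 429 and 357 in sham and of 314, 308 and 276 in ON-CR (-0.45, limma adjusted p = 0.172). Polrmt had values of 245, 267 and 224 in sham and of 169, 188 and 164 in ON-CR (-0.50, limma adjusted p = 0.166). Neither overlapped between the groups under either scaling, and both had a sign opposite to the median of the mitochondrial mRNAs.

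Among 12 regulators of nuclear respiratory genes the median was -0.08 (0.04 with equal totals). Nrf1, whose motif is printed in the Cox6a1 and Cycs promoters, had values of 594, 478 and 558 in sham and of 441, 394 and 412 in ON-CR (-0.38, limma adjusted p = 0.209). Gabpb1, a subunit of GABP, did not overlap either (-0.43, limma adjusted p = 0.282). With equal totals no regulator was lower without overlap, so both Nrf1 and Gabpb1 overlapped there. The coactivator Ppargc1a overlapped as deposited (-0.04). Of 15 citric acid cycle genes, 12 were negative with a median of -0.16 (9 and -0.03 with equal totals), and 7 (46.7%) were lower without overlap, beside 11% of all genes and 23.3% of genes with a mean of at least 500, or 2 with equal totals (Ogdh and Sucla2). Cs, the enzyme that starts the cycle, Ogdh and Sucla2 were among the 7, and the lowest of them, Sucla2, had a fold change of -0.31 (limma adjusted p = 0.181). The median of 7 carriers and channels was -0.11 (0.02 with equal totals). Slc25a4, an ATP/ADP carrier, and Slc25a3, the phosphate carrier, were lower without overlap as deposited (-0.21 and -0.10, limma adjusted p = 0.444 and 0.700) but not with equal totals, and Vdac1, the outer membrane channel, was higher without overlap at 2999, 3012 and 3132 in sham and 3689, 3708 and 3804 in ON-CR (0.29, limma adjusted p = 0.171). Both mitochondrial ribosomal RNAs overlapped between the groups, with fold changes of 0.17 and 0.23. Of these lists, 0 to 4 genes each had an unadjusted p at or under 0.05 in a direction.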

How the data were processed

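RNA of 6 optic nerves (sham mice 1 to 3 and ON-CR mice 4 to 6, grouped by the sample labels) was sequenced in bulk. Alignment and quantification with DRAGEN, assignment to Ensembl genes (mm10) and median normalization with Partek Flow 10.0 were done by the authors. The deposited table holds the resulting normalized signal per gene, which is not whole. Count models were therefore not run. Depth was estimated from the value of 1 read, taken as the most frequent low value of a library (0.885 to 1.06). Of the values above 0, only 49.7% to 61.6% in a library were whole multiples of it, within 0.02 reads. No error of this estimate was computed. The labels do not say more than that the 3 nerves of a group are separate mice.

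The test was limma (version 3.58.1, R 4.3.3) on log2(value + 1), two-sided, with a trend of variance on mean and Benjamini-Hochberg adjustment over 25755 genes. The test was checked on simulated data. The members and gene lists were chosen with earlier results of these data known. Genes named were all 13 mitochondrially encoded members, the 5 nuclear members with the highest and the 5 with the lowest fold change at a mean of at least 50, the isoform pairs, Sdha to Sdhd, Cycs, Cyc1 and Uqcrfs1. Others, such as Ndufaf6, Ndufa6, Atp5a1, Atp5c1, Atp5d, Atp5e, Atp5j, Itgax, Itgad, Armc5 and the listed genes named, were chosen after their values were seen. Positions and exon lengths came from GENCODE gene models of GRCm38, found for 108 of 111 members, and promoters from RefSeq (GRCm38.p6). Many nuclear members have near-identical pseudogene copies, and how shared reads were divided is not given in the sources used here. Alternatives were 4 other scalings, pseudocounts 0.5 and 2, a filter (at least 10 in at least 3 libraries), a robust fit, sample quality weights without trend, and leaving out each mouse. Some results for genes named by the lists are not reported here.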

Additional observations from a re-analysis of the deposited data

How the results depend on the processing

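No paired analysis was possible because the mice of the groups carry different numbers. Of 615 pairs of a named gene and a setting, 579 kept direction and side of the threshold, 33 reversed and 3 passed the threshold newly. Those 3 were Cyc1 in the robust fit (-0.53) and Cyc1 (-0.60) and Cox6a2 (2.25) without ON-CR mouse 5. Nuclear members called lower numbered 1 in the robust fit and 0 to 1 when a mouse was left out, and those called higher 0 to 1. All genes called numbered 7 with sample quality weights and 67 (without ON-CR mouse 6) to 854 (without ON-CR mouse 5) over mice left out, with 192, 123 and 258 without sham mice 1, 2 and 3. The cause was not tested.

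Scaling to equal totals, with all genes or without the mitochondrially encoded ones, raised the median of all genes from 0.03 to 0.15 and 0.17, which by construction shifts every gene of a library alike. The nuclear median became 0.074 and 0.091, and the mitochondrial median 0.28 and 0.29. Medians by complex, both genomes, became 0.070 and 0.088 (I), 0.042 and 0.059 (III), 0.083 and 0.10 (IV), 0.086 and 0.10 (V) and 0.085 and 0.10 (assembly factors), and 0.089 for complex II without mitochondrial genes. Under these 2 scalings, fold changes reversed for mt-Nd1 (0.043 and 0.060), mt-Nd2 (0.12 and 0.13), mt-Nd5 (0.059 and 0.077), mt-Atp6 (0.064 and 0.081), Cox6b2 (0.083 and 0.10), Cox7a2 (0.074 and 0.092), Ndufa4l2 (0.092 and 0.11), Sdhc (0.091 and 0.11) and Sdhd (0.052 and 0.070), and for Cycs under the latter (0.012). Upper-quartile scaling reversed mt-Nd2 (0.017), and sample quality weights Ndufa4l2 (0.0015).

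Over mice left out, the mitochondrial median ranged from 0.049 to 0.19 and the nuclear median from -0.12 to -0.017. Fold changes that reversed there ranged from -0.088 to 0.063 for mt-Nd2, -0.067 to 0.082 for Cox6b1, -0.22 to 0.11 for Cox6b2, -0.14 to 0.0029 for Cox7a2, -0.17 to 0.15 for Ndufa4l2, -0.14 to 0.075 for Sdhc and -0.050 to 0.097 for Atp5g1.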

Other observations

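Among the rows left out by the rule, Ndufb1-ps, which the gene models of GRCm38 list as a non-coding RNA, had values of 821, 818 and 833 in sham and of 981, 903 and 1030 in ON-CR. All 3 ON-CR values were above all sham values.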
